A study of Mus musculus with 4 samples.

Results

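Pericyte nuclei of the mouse forebrain were examined in 4 single-nucleus RNA-seq libraries, and they made up 321 of 78728 nuclei. Pericytes are mural cells that sit on the outer wall of brain capillaries, and the nuclei were selected on low and high counts of marker genes. A nucleus was taken when its unique molecular identifiers (UMIs, each counting 1 captured RNA molecule) of Atp13a5, Kcnj8, Abcc9, Vtn, Higd1b and Rgs5 summed to at least 4. It was also required to hold at most 1 UMI of the smooth muscle genes Acta2, Myh11 and Tagln, at most 2 of the endothelial genes Flt1, Cldn5, Adgrl4 and Mecom, at most 1 of the neuronal genes Rbfox3, Slc17a7, Slc17a6, Gad1 and Gad2, and at most 1 of Mog, Aqp4 and Csf1r, which mark oligodendrocytes, astrocytes and microglia. The levels of these genes are therefore given as a description of what was chosen.

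All libraries came from male C57BL/6J mice that were 8 weeks old when the brain was taken. They had been injected at 4 weeks of age with adeno-associated virus (AAV) in the cisterna magna, the cerebrospinal fluid space under the cerebellum. AAV-VEGF-C carried mouse vascular endothelial growth factor C at full length, and AAV-CTRL encoded a soluble piece of VEGF receptor 3 that does not bind VEGF-C, joined to an immunoglobulin tail, so that both groups made a secreted protein from a virus. Cortex and striatum of 5 mice were pooled per AAV group, which gave 1 library for each region and AAV. Values for the 4 libraries are given with cortex before striatum and, within a region, with AAV-CTRL before AAV-VEGF-C. With 1 library of pooled mice per group, no test between groups could be made, mice cannot be told apart, and every interval below is a 95% interval that covers counting error only.

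Pericytes share the basement membrane with the capillary endothelium and are kept in place by platelet-derived growth factor B, which endothelial cells release and which the pericyte receptor Pdgfrb binds. They are known for their part in the blood-brain barrier and in capillary tone, and they carry an ATP-sensitive potassium channel built from Kcnj8 and its sulfonylurea receptor subunit Abcc9. VEGF-C acts through VEGF receptor 3 (Flt4) and, after processing, VEGF receptor 2 (Kdr), which are receptors of lymphatic and blood endothelium. Vascular smooth muscle cells, the mural cells of larger vessels, share many genes with pericytes and differ in their contractile proteins. Fibroblasts of the meninges and of larger vessels also lie outside the endothelium.

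The libraries held 17168, 20370, 23724 and 17466 nuclei with a median of 2622.5, 2873, 2272 and 2647 UMIs per nucleus. Genes of striatal and thalamic neurons did not follow the region labels. Pde10a, a phosphodiesterase that is abundant in striatal projection neurons, stood at 1307, 1247, 688 and 687 CPM (UMIs per 1000000 of the summed UMIs) over all nuclei that are not pericyte nuclei, higher in both libraries labelled cortex. Tcf7l2, a transcription factor known from thalamic neurons, stood at 44.9, 42.5, 297 and 333 CPM, higher in both libraries labelled striatum. The libraries are therefore called by their labels, and region differences are differences between labels. Pairs of libraries shared 76 to 118 cell barcodes, and no pericyte nucleus carried a barcode that was also a pericyte nucleus in another library.

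The limits decided most of the selection. Of 2634 nuclei with at least 4 UMIs of the 6 genes, 321 (12.2%) met every limit. The endothelial limit was exceeded by 1951 (74.1%) and was the sole obstacle for 822, and the neuronal limit was exceeded by 1264 and was the sole obstacle for 289. Just inside the minimum, with a sum of exactly 4, were 4, 6, 36 and 16 nuclei, and just outside it, with a sum of exactly 3 and all limits met, were 15, 14, 43 and 24. The pericyte nuclei numbered 44, 48, 154 and 75, with a median of 1519, 1399, 1511.5 and 1860 UMIs per nucleus, and 0, 0, 12 and 4 of them were called doublets, droplets with more than 1 nucleus.

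The label held for most but not all of these nuclei. UMIs of 9 fibroblast markers (Col1a1, Col1a2, Col3a1, Dcn, Slc47a1, Slc6a13, Pdgfra, Bnc2 and Ranbp3l), which the rule does not limit, were absent from 163 of the 321 nuclei, while 78 nuclei held 8 or more. After these values were seen, the nuclei were split into sets. The core, 202 nuclei, had UMIs of at least 2 of the 6 genes and fewer than 4 UMIs of the fibroblast markers. A fibroblast-marker set, 95 nuclei, held at least 4 of them, and a single-gene set, 24 nuclei, owed its sum to 1 gene (Rgs5 in 12, Vtn in 8 and Atp13a5 in 4). Pericytes are represented below by the core, with values of all 321 nuclei where a count depends on the choice.

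**Figure D1:**
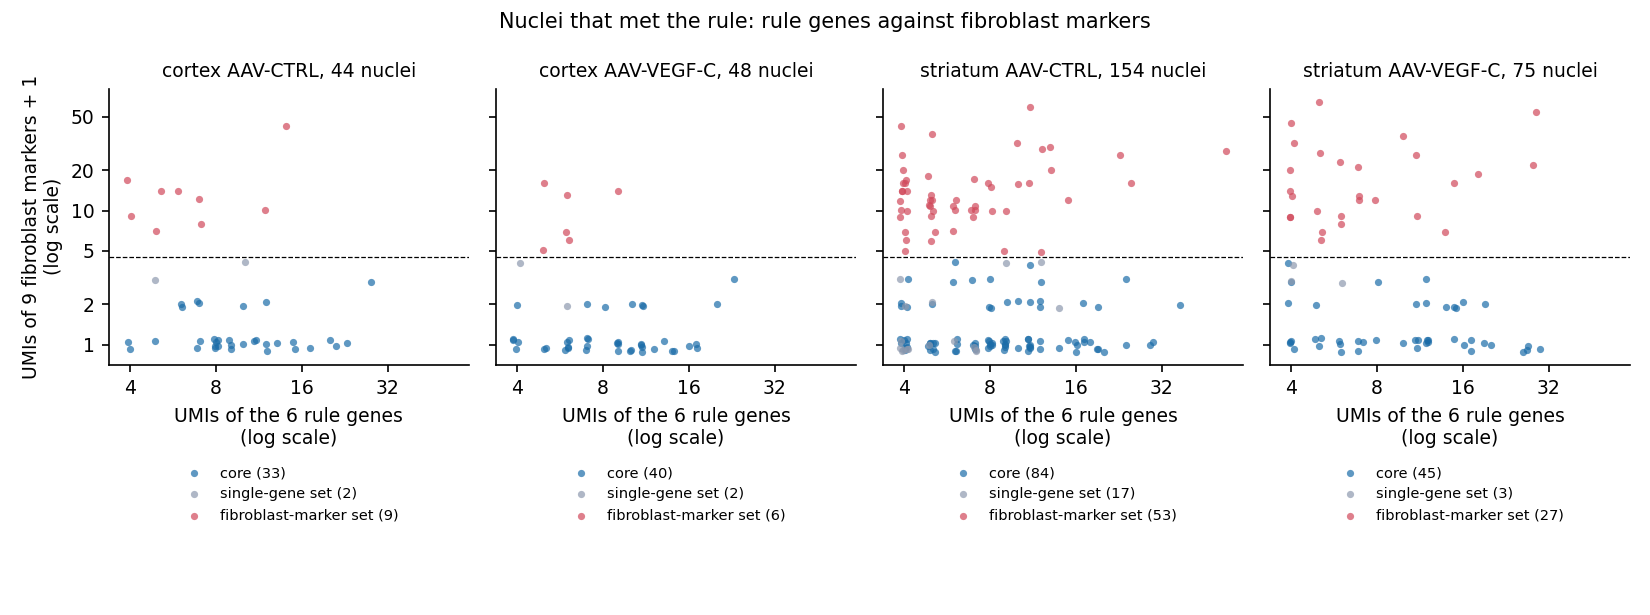
Each point is 1 nucleus that met the rule, with its UMIs of the 6 rule genes on the horizontal axis (log scale) and its UMIs of 9 fibroblast markers plus 1 on the vertical axis (log scale), 1 panel per library; the dashed line marks the minimum of 4 fibroblast-marker UMIs and colours mark the core, the fibroblast-marker set and the single-gene set. The fibroblast-marker set took 9, 6, 53 and 27 nuclei, and most of it lies far above the line, apart from the core of 33, 40, 84 and 45 nuclei.

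The fibroblast-marker set differed from the core in genes that the split did not use. Ptgds, the prostaglandin D synthase of meningeal cells, stood at 12620.1 to 27065 CPM in it over the 4 libraries and at 397 to 1379 CPM in the core. Trpm3, a cation channel, stood at 9156 to 16179 CPM against 257 to 734 CPM. More than 5 UMIs of it were held by 71 of the 95 nuclei and by 8 of the 202 core nuclei. The highest core values of both genes rested mostly on 1 nucleus each. It held 80 of 88 UMIs of Ptgds in cortex AAV-VEGF-C and 34 of 37 UMIs of Trpm3 in cortex AAV-CTRL. Vtn, which encodes the matrix protein vitronectin, was the only rule gene in 58 of the 95 nuclei. Its level there of 2181 to 2848 CPM follows from the rule, which admitted these nuclei by their Vtn. Notch3, a receptor of mural cells, stood at 0 to 23.3 CPM in the fibroblast-marker set and 533 to 906 CPM in the core. Art3, an ecto-enzyme found in brain pericytes, had 0 UMIs in the fibroblast-marker set, which allows up to 3 of its 246494 UMIs, and 11, 11, 28 and 22 UMIs in the core.

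In the core the sum of the 6 genes ran from 4 to 37 UMIs with a median of 9, and 67, 61 and 39 nuclei held 3, 4 and 5 of the genes. Atp13a5, a transport ATPase whose expression in brain is known from pericytes, stood at 1806, 1505, 1846 and 1934 CPM. Vtn stood at 3156, 2508, 2227 and 2570.3 CPM. Rgs5, a regulator of G-protein signalling in mural cells, stood at 953, 1066, 1360.3 and 1190.5 CPM. These 3 genes differed between libraries by less than 2-fold. The potassium channel pair was lower in count: Abcc9 stood at 715, 502, 650.3 and 825 CPM and Kcnj8 at 298, 157, 232 and 298 CPM, both lowest in the library labelled cortex AAV-VEGF-C. Higd1b, a mitochondrial inner membrane protein of mural cells, stood at 179, 235, 127 and 244 CPM and rested on 9, 15, 17 and 18 UMIs.

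Each core nucleus held at least 2 of the 6 genes by definition, so that their joint occurrence describes the selection. Vtn had a UMI in 94.1% of the 202 nuclei, Atp13a5 in 87.1%, Rgs5 in 69.8%, Abcc9 in 55.9%, Kcnj8 in 27.2% and Higd1b in 23.3%. For cortex AAV-CTRL and AAV-VEGF-C, the rates were 97.0% and 77.5% for Atp13a5, 100% and 97.5% for Vtn and 33.3% and 20% for Kcnj8. They were 60.6% and 70% for Rgs5, 57.6% and 60% for Abcc9 and 18.2% and 27.5% for Higd1b. The part of these rates in the ratios below was not tested. Atp13a5 and Vtn occurred together in 166 nuclei, and Kcnj8 and Abcc9, which lie next to each other on the same strand of chromosome 6 (142564837 to 142571614 and 142587862 to 142702315, mm10), in 35. As a measure of free RNA in the droplets, 4782 oligodendrocyte nuclei, chosen by at least 4 UMIs of Mog, Mag and Opalin, held a UMI of Vtn in 4.22%, of Atp13a5 in 1.13%, of Rgs5 in 3.83% and of Kcnj8 in 0.272%, at a median of 1940.5 UMIs per nucleus against 1400.5 in the core.

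**Figure D2:**
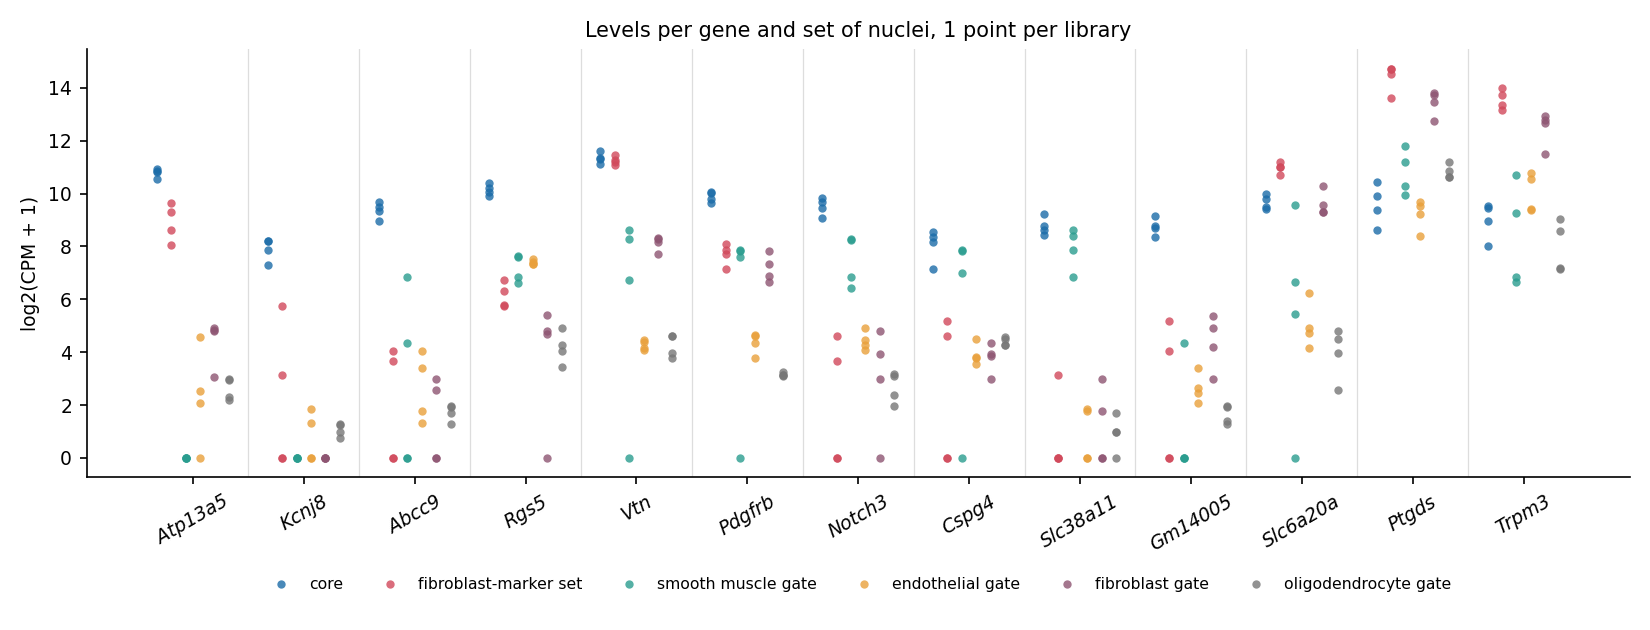
Level of each gene (horizontal axis) as log2(CPM + 1) (vertical axis) in the core, the fibroblast-marker set and the compared sets of nuclei (gates, named in the legend and defined in the text), with 1 point per library and sets told apart by colour. Points of the core lie close together for the rule genes and for Pdgfrb and Notch3, and Notch3 is low in the fibroblast-marker set.

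Genes that took no part in the selection showed the same identity, which is a description since the core was chosen from these nuclei. Pdgfrb, the receptor for endothelial PDGF-B, stood at 1032 CPM (95% interval 771 to 1353), 799 CPM (95% interval 595 to 1051), 1069 CPM (95% interval 901 to 1259) and 879 CPM (95% interval 679 to 1121). In all other nuclei of the same libraries it stood at 22.3 to 25.2 CPM, and it had a UMI in 73.3% of core nuclei and in 1.59% of oligodendrocyte nuclei. The intervals of the 4 libraries overlapped. Notch3 stood at 814, 533, 710.1 and 906 CPM, with a UMI in 64.9% of nuclei. Cspg4, which encodes the NG2 proteoglycan of pericytes and oligodendrocyte precursors, stood at 377, 141, 329 and 284 CPM, lowest in the library labelled cortex AAV-VEGF-C. P2ry14, a receptor for UDP-glucose, stood at 258, 345, 411 and 352 CPM.

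Of 24 pericyte markers outside the rule, 22, 20, 23 and 23 had a UMI in the core of the 4 libraries. Their summed level was 7800.1, 5000.4, 7078 and 7305 CPM, against 397 to 709.9 CPM in all other nuclei. Anpep, an aminopeptidase of the pericyte surface, had 3, 1, 11 and 6 UMIs. Ebf1, a transcription factor of mural cells, stood at 1548, 941, 1697 and 1583 CPM. Zic1, a zinc-finger transcription factor of forebrain mural cells and meninges, stood at 377, 62.7, 284 and 311 CPM and was far lower in the library labelled cortex AAV-VEGF-C than in the others. Tbx18, a T-box factor of mural cells, had 6, 2, 5 and 3 UMIs, and Nkx3-2 had 0 UMIs in every library.

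Genes outside the rule that led the core were ranked by their fold over all other nuclei. Among genes with at least 20 UMIs in the core of every library, 27 of 242 (11.2%) were at least 4-fold higher than in all other nuclei in every library, and over all 321 nuclei 37 of 428 (8.64%) were, with 4 of the 6 rule genes in each count. Gm14005, a long non-coding RNA gene (chromosome 2, 128178319 to 128502765), was 62.2- to 93.1-fold higher over the 4 libraries, the largest fold outside the rule when genes are ranked by their lowest library. Slc38a11, an amino acid transporter (chromosome 2, 65316430 to 65364034), was 35.2- to 77.7-fold higher, and Pdgfrb was 34.0- to 46.2-fold higher. Adap2, which binds phosphoinositides at the membrane, was 27.1- to 36.3-fold higher. Its antisense neighbour Adap2os, within the same interval of chromosome 11, was 22.8- to 31.7-fold higher, and whether reads were assigned by strand is not given in the sources used here.

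Further leading genes were Dock6, an activator of small GTPases, at 18.9- to 32.1-fold, and Itga1, the collagen- and laminin-binding integrin subunit, at 17.8- to 23.7-fold. Slc6a20a, an imino acid transporter (chromosome 9, 123634770 to 123678885), was 12.9- to 39.9-fold higher than in all other nuclei and stood at 1012, 674, 718 and 879 CPM in the core. It stood higher still in the fibroblast-marker set, at 1677 to 2337 CPM. Cald1, which encodes the actin-binding protein caldesmon, was 9.11- to 20.3-fold higher, Igfbp7, an insulin-like growth factor binding protein, 8.60- to 12.2-fold, and Dlc1, a GTPase-activating protein, 8.34- to 14.6-fold. Pde8b, a cyclic AMP phosphodiesterase, was 4.36- to 9.83-fold higher.

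Further genes of the lists were described by their levels in the core. Ano1, a calcium-activated chloride channel of mural cells, stood at 437, 298, 501 and 311 CPM. Cacna1c, the L-type calcium channel subunit, stood at 1072, 689.7, 927 and 879 CPM. Among vasoactive signalling genes, Prkg1, the cyclic GMP-dependent kinase, stood at 1727, 1160.0, 1869 and 1705 CPM and Pde8b at 1846, 1113, 1271 and 1529 CPM. Ptn, which encodes the secreted growth factor pleiotrophin, stood at 2144, 1709, 1069 and 1475 CPM, and Il34, a ligand of the microglial receptor Csf1r, at 595, 345, 351 and 257 CPM. Of the basement membrane genes, Lama2 stood at 377, 282, 673 and 568 CPM and Lamc1 at 377, 361, 306 and 365 CPM, both subunits of laminin.

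Smooth muscle nuclei were the nearest comparison, chosen by at least 4 UMIs of Acta2, Myh11 and Tagln with the same endothelial, neuronal and glial limits and no limit on the pericyte genes. They numbered 53 (6, 7, 26 and 14). Atp13a5 and Kcnj8 had 0 UMIs in them, which allows up to 3 of 117076, against 577 and 78 UMIs among 321892 in the core. Of the 14 smooth muscle nuclei labelled striatum AAV-VEGF-C, 1 held 24321 of their 51234 UMIs, at a median of 1657 per nucleus. The part of this nucleus in the pooled ratios was not tested. Over the 4 libraries pooled, Pdgfrb was higher in the core (log2 ratio 2.30, 95% interval 1.69 to 2.98), as was Notch3 (log2 ratio 1.84, 95% interval 1.24 to 2.52). Slc38a11 was close in both (log2 ratio 0.60, 95% interval 0.05 to 1.20), and so was Ebf1 (log2 ratio 0.47, 95% interval 0.18 to 0.76). Cald1 (log2 ratio -0.89, 95% interval -1.16 to -0.61), Igfbp7 (log2 ratio -0.83, 95% interval -1.18 to -0.48) and Kcnma1, the large-conductance potassium channel (log2 ratio -1.44, 95% interval -1.86 to -1.03), were higher in smooth muscle nuclei. Gm14005 had 1 UMI in smooth muscle nuclei against 140 in the core.

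Endothelial nuclei, chosen by at least 4 UMIs of Flt1, Cldn5, Adgrl4 and Mecom and at most 1 UMI of the pericyte genes, numbered 1081 (203, 252, 394 and 232). Rgs5 stood at 161 to 183 CPM in them and had a UMI in 27.3% of nuclei, while Vtn stood at 16.0 to 21.0 CPM. The core was higher in both (Rgs5 log2 ratio 2.85, 95% interval 2.62 to 3.07; Vtn log2 ratio 7.07, 95% interval 6.57 to 7.62), and the limit of 1 UMI caps these genes in the endothelial nuclei. Among genes that neither selection used, Pdgfrb (log2 ratio 5.53, 95% interval 5.03 to 6.06) and Slc38a11 (log2 ratio 8.57, 95% interval 6.69 to 11.63) were higher in the core, while Ebf1 (log2 ratio 0.79, 95% interval 0.64 to 0.94) and Igfbp7 (log2 ratio 0.45, 95% interval 0.20 to 0.69) differed less. The limit of 1 UMI also left out endothelial nuclei with more UMIs of the pericyte genes, and its part in these ratios was not tested. Foxf2, a forkhead factor known from brain pericytes, had 6 UMIs in the core and 76 in endothelial nuclei (log2 ratio -1.21, 95% interval -2.70 to -0.02).

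Fibroblast nuclei, chosen by at least 4 UMIs of Col1a1, Col1a2, Col3a1 and Dcn and at most 3 UMIs of the pericyte genes, numbered 312 (33, 28, 192 and 59). Pdgfrb (log2 ratio 2.83, 95% interval 2.49 to 3.17) and Notch3 (log2 ratio 5.30, 95% interval 4.50 to 6.23) were higher in the core. Slc6a20a (log2 ratio -0.08, 95% interval -0.30 to 0.13) and Ptn (log2 ratio 0.08, 95% interval -0.09 to 0.24) were close in both, and Tbx18 was higher in fibroblast nuclei (log2 ratio -1.57, 95% interval -2.43 to -0.80). Pericyte markers outside the rule thus differed in which other nuclei also held them, with Slc38a11 also in smooth muscle nuclei and Slc6a20a in fibroblast nuclei.

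RNA of other cell types was present in the core. The summed level of 12 neuron markers outside the rule was 8713, 10267, 8147 and 7792 CPM, against 29018 to 31374 CPM in all other nuclei, and Snap25, a synaptic protein of neurons, had a UMI in 76.7% of core nuclei and in 79.6% of oligodendrocyte nuclei. Oligodendrocyte and precursor markers summed to 2540.5, 1223, 5149.8 and 3774 CPM in the core and to 1956, 1901, 4655 and 4799.9 CPM in all other nuclei, higher under the striatum label in both. Astrocyte markers summed to 5180.2, 6364, 4843 and 4207 CPM. Endothelial markers outside the rule summed to 794, 1646, 1136 and 1231 CPM, smooth muscle markers to 476, 533, 643 and 473 CPM and microglia and macrophage markers to 99.2, 204, 202 and 717 CPM, the last highest in the library labelled striatum AAV-VEGF-C. Haemoglobin and other red blood cell genes summed to 476, 423, 665 and 689.9 CPM. The part of such RNA in the results below was not tested.

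Of the receptors of VEGF-C, Flt4 was not detected in the core and Kdr was near 0. Flt4 had 0 UMIs in each library, which allows up to 3 of 321892, while it stood at 67.4, 62.9, 27.3 and 50.4 CPM in endothelial nuclei and at 54.9 to 70.1 CPM in the 822 nuclei that exceeded the endothelial limit alone. Kdr, VEGF receptor 2, had 2, 0, 4 and 2 UMIs in the core, and Vegfc itself had 0, 1, 0 and 0 UMIs. The co-receptors Nrp1 and Nrp2 had 1, 3, 12 and 8 UMIs and 1, 2, 14 and 6 UMIs. Vegfa, the main endothelial growth factor, had 3, 1, 4 and 4 UMIs, and Pdgfb had 8 UMIs in all. At these counts a difference between AAV labels was not detectable for any of these genes. For Nrp1 and Nrp2 under the striatum label the log2 ratios of AAV-VEGF-C over AAV-CTRL were 0.27 (95% interval -1.22 to 1.68) and -0.37 (95% interval -2.03 to 1.10). The transgene and the endogenous Vegfc cannot be told apart by these gene counts.

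The share of pericyte nuclei was compared between the AAV labels, as a measure of how many were recovered. The core made up 0.192% (0.132 to 0.270%), 0.196% (0.140 to 0.267%), 0.354% (0.283 to 0.438%) and 0.258% (0.188 to 0.345%) of nuclei in the 4 libraries. Under the cortex label the log2 ratio of AAV-VEGF-C over AAV-CTRL was 0.03 (95% interval -0.67 to 0.74), and under the striatum label it was -0.46 (95% interval -1.01 to 0.08). Both intervals include no difference. Over all 321 nuclei the shares were 0.256%, 0.236%, 0.649% and 0.429%, with log2 ratios of -0.12 (95% interval -0.74 to 0.50) and -0.60 (95% interval -1.01 to -0.19), the latter a 1.51-fold lower share. The share of endothelial nuclei, defined above, had log2 ratios of 0.07 (95% interval -0.21 to 0.34) and -0.32 (95% interval -0.56 to -0.08).

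**Figure D3:**
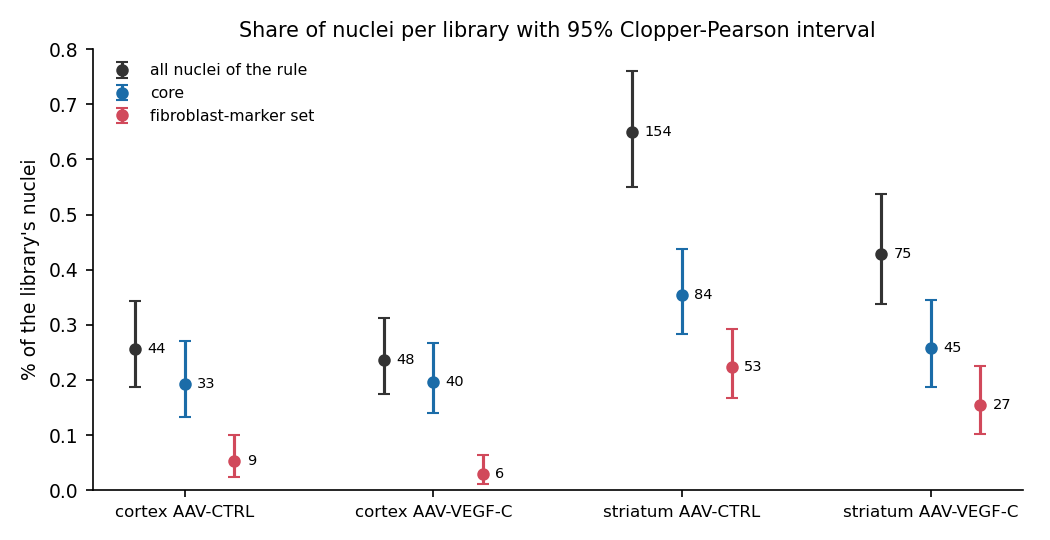
Share of each library's nuclei (vertical axis, percent) that belonged to each set, with 1 point per library and set, bars for the 95% Clopper-Pearson interval and the number of nuclei beside each point. Core shares lie between 0.192 and 0.354%, with overlapping intervals within each region label, and the fibroblast-marker set is higher in both libraries labelled striatum.

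Relative to endothelial nuclei, the AAV labels were close. The core numbered 16.3, 15.9, 21.3 and 19.4 per 100 endothelial nuclei, with 95% intervals of 10.9 to 23.6, 11.1 to 22.2, 16.6 to 27.0 and 13.8 to 26.8. Between region labels the share of the core was higher under the striatum label, by a log2 ratio of 0.88 (95% interval 0.28 to 1.51) with AAV-CTRL and 0.39 (95% interval -0.26 to 1.04) with AAV-VEGF-C. Over all 321 nuclei the ratios were 1.34 (95% interval 0.85 to 1.86) and 0.87 (95% interval 0.32 to 1.42), and the fibroblast-marker set had the largest of these ratios, at 2.09 (95% interval 1.06 to 3.30) and 2.39 (95% interval 1.09 to 3.96). Differences in dissection between libraries cannot be told apart from differences in the number of pericytes.

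Gene levels in the core were then compared between AAV labels, as AAV-VEGF-C over AAV-CTRL, for genes with at least 20 UMIs over both libraries, and a gene past 2-fold was counted. Under the cortex label 80 of 1188 genes (6.73%) were past 2-fold higher and 58 (4.88%) past 2-fold lower. None of the 6 rule genes was past 2-fold, with a median log2 ratio of -0.30 against 0.04 over all genes. Of 11 pericyte markers outside the rule that passed the minimum, 0 were past 2-fold higher and 3 were past 2-fold lower, with a median of -0.61. Among these were Zic1 (4 against 19 UMIs, a log2 ratio of -2.59 (95% interval -4.60 to -1.0)) and Cspg4 (9 against 19 UMIs, a log2 ratio of -1.42 (95% interval -2.75 to -0.20)). The other 8 lay between, among them Pdgfrb at -0.37, Notch3 at -0.61, Slc6a20a at -0.59 and Ebf1 at -0.72. The summed level of the 24 markers was lower in the library labelled cortex AAV-VEGF-C than in the other 3, as given above.

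Other functional lists under the cortex label held few such genes. The ion channel list had 1 of 13 past 2-fold higher (Cacnb2, a calcium channel subunit, 27 against 8 UMIs, a log2 ratio of 1.41) and 1 past 2-fold lower, with a median of -0.41. With cortex AAV-VEGF-C, 13 of the 27 UMIs of Cacnb2 came from 1 nucleus. Without its highest nucleus in each library, Cacnb2 had 14 against 6 UMIs and a log2 ratio of 0.94, no longer past 2-fold. The solute transporter list had 1 of 8 higher (Slc1a3, a glutamate transporter that astrocytes also carry, 33 against 7 UMIs, a log2 ratio of 1.90) and 1 lower (Slco3a1, an organic anion transporter, 14 against 31 UMIs, a log2 ratio of -1.49). Contractile genes had 0 of 9 higher and 1 lower (Ppp1r12a, the myosin phosphatase subunit, 8 against 16 UMIs, a log2 ratio of -1.34). Vasoactive receptor and cyclic nucleotide genes had 0 of 12 in either direction, with a median of -0.28. Basement membrane genes had 0 of 8 higher and 1 lower (Lama4), with a median of -0.30. Of the neuron markers, 1 of 12 was past 2-fold higher (Rbfox1) and the median was 0.22, above that of all genes. Of the astrocyte markers, 1 of 5 was past 2-fold higher (Slc1a3) and the median was 0.78, opposite in sign to that of the pericyte markers. Of the oligodendrocyte and precursor list, 2 of 4 were lower, Lhfpl3 among them, with a median of -0.51. The levels of these other cell types therefore differed between the same libraries, and their part in the pericyte marker ratios was not tested.

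Some of the largest ratios under the cortex label rested on single nuclei. Lhfpl3, a gene of oligodendrocyte precursors, had 3 against 29 UMIs, a log2 ratio of -3.61 (95% interval -5.97 to -1.92), and 15 of the 29 came from 1 nucleus. Ptgds had 88 against 20 UMIs, a log2 ratio of 1.80 (95% interval 1.08 to 2.58), and 80 of the 88 came from 1 nucleus. Without the nucleus with most of a gene's UMIs in each library, Lhfpl3 had 2 against 14 UMIs and a log2 ratio of -3.20 (95% interval -6.38 to -1.08), while Ptgds had 8 against 17 UMIs and a log2 ratio of -1.44, in the opposite direction. The ratio of Ptgds thus rests on 1 nucleus. Rbfox1, a neuronal splicing factor, had 99 against 34 UMIs, a log2 ratio of 1.20 (95% interval 0.63 to 1.81), with 45 of the 99 in 1 nucleus and a log2 ratio of 0.51 without the highest nucleus of each library. Nebl, an actin-binding protein, had 23 against 3 UMIs, a log2 ratio of 2.60 (95% interval 0.87 to 4.98) over 9 and 3 nuclei, with at most 7 in 1 nucleus. Meis2, a homeobox factor, had 36 against 9 UMIs, a log2 ratio of 1.66 (95% interval 0.58 to 2.90) over 17 and 8 nuclei. Zic1 was spread over 4 and 12 nuclei with at most 1 and 3 UMIs each, so that its lower level did not rest on 1 nucleus.

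Under the striatum label no pericyte marker outside the rule was past 2-fold. Of 2631 genes, 100 (3.8%) were past 2-fold higher and 173 (6.58%) past 2-fold lower with AAV-VEGF-C. The 6 rule genes, on which the nuclei were chosen, had a median of 0.28. None of 14 pericyte markers outside the rule (median 0.11), none of 15 ion channel genes, none of 12 solute transporters, none of 11 contractile genes and none of 14 vasoactive genes was past 2-fold in either direction, beside a median of 0.01 over all genes. Zic1 had 23 against 38 UMIs, a log2 ratio of 0.13 (95% interval -0.68 to 0.92), and Cspg4 21 against 44 UMIs, a log2 ratio of -0.21 (95% interval -1.04 to 0.57). Neither was thus past 2-fold under the striatum label, and the difference between the labels was not tested. Of the oligodendrocyte and precursor list, 2 of 9 were lower (St18 and Prr5l) with a median of -0.57, and of the astrocyte markers 1 of 6 was lower (Gpc5) with a median of -0.36. Basement membrane genes had 1 of 11 higher (Lamc3, 21 against 16 UMIs, a log2 ratio of 1.25) and 1 lower (Lama4). In the TGF-beta and BMP list 2 of 5 were lower, the TGF-beta co-receptor Eng (5 against 21 UMIs, a log2 ratio of -1.21) and the BMP receptor Bmpr1a (5 against 20 UMIs, a log2 ratio of -1.14).

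Of the largest ratios under the striatum label, those of 5 genes rested wholly or mostly on 1 nucleus. Bpifb6, Scgb1c1, Bpifb4 and 5430419D17Rik had 90, 49, 33 and 39 UMIs with AAV-CTRL and 0 with AAV-VEGF-C, and Gpx6 had 77 and 1. These are genes of nasal epithelium and its glands, and 1 core nucleus held 273 UMIs of 8 such genes, with 88 of the 90 of Bpifb6, while the next core nucleus of that library held 2. Scgb1c1 had a UMI in 11 core nuclei with AAV-CTRL. Without the highest nucleus of each library it had 0 against 10 UMIs (upper bound of the 95% interval -0.30). Nkain2, which interacts with the sodium pump, had 10 against 135 UMIs, a log2 ratio of -2.90 (95% interval -3.99 to -1.98), over 8 and 34 nuclei, and -2.85 without the highest nucleus of each library. Among genes that were higher, Syngr1, a synaptic vesicle protein, had 15 against 5 UMIs, a log2 ratio of 2.44 (95% interval 0.91 to 4.26) over 13 and 5 nuclei. Rpn1, a subunit of the glycosylation complex, had 19 against 8 UMIs, a log2 ratio of 2.10 (95% interval 0.85 to 3.50) over 14 and 8 nuclei. Both had at most 2 UMIs in a nucleus. Sgcz, a sarcoglycan, had 45 against 27 UMIs, a log2 ratio of 1.59 (95% interval 0.87 to 2.34), with 19 of the 45 in 1 nucleus.

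Of 1144 genes kept under both region labels, 3 were past 2-fold higher with AAV-VEGF-C for cortex and lower for striatum, and 2 the reverse. Few genes were past 2-fold in the same direction under both labels: 4 of 1144 genes (0.35%) were higher with AAV-VEGF-C both times and 4 (0.35%) lower. Higher were Cacna2d3, a calcium channel subunit, with log2 ratios of 1.94 (95% interval 0.74 to 3.36) and 1.62 (0.41 to 2.91) under the cortex and striatum label, Etv1, an ETS transcription factor, with 1.47 (95% interval 0.11 to 3.07) and 1.18 (-0.02 to 2.40), Thsd7a, a thrombospondin-domain protein, with 2.32 (95% interval 0.56 to 4.72) and 1.08 (-0.14 to 2.32), and Tanc2, a scaffold protein, with 1.07 (95% interval -0.35 to 2.72) and 1.09 (0.08 to 2.11). Etv1 had a UMI in 5, 17, 12 and 12 core nuclei, while 22 of 34 UMIs of Cacna2d3 and 10 of 19 of Thsd7a with cortex AAV-VEGF-C came from 1 nucleus each. Lower were Pde4b, a cyclic AMP phosphodiesterase, with -1.84 (95% interval -2.93 to -0.86) and -1.47 (-2.20 to -0.80), the laminin subunit Lama4 with -1.44 (95% interval -2.98 to -0.06) and -1.35 (-3.10 to 0.08), Ano4, of the anoctamin membrane protein family, with -1.54 (95% interval -2.78 to -0.41) and -1.14 (-2.31 to -0.12), and Ptprt, a receptor tyrosine phosphatase, with -1.05 (95% interval -2.28 to 0.11) and -2.11 (-3.81 to -0.76).

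The lower genes were counted as follows. Pde4b had 34, 12, 110 and 22 UMIs, with at most 16, 4, 18 and 7 in 1 nucleus. Lama4 had 15, 7, 23 and 5 UMIs over 9, 5, 18 and 5 nuclei, with at most 4 in 1 nucleus, and Ano4 had 23, 10, 40 and 10 UMIs over 14, 8, 29 and 9 nuclei. Ptprt had 18, 11, 39 and 5 UMIs, with 7 of the 18 and 21 of the 39 in 1 nucleus each. Without the highest nucleus of each gene and library, Pde4b, Lama4 and Ano4 remained past 2-fold both times, while Ptprt had log2 ratios of -0.80 (95% interval -2.31 to 0.65) and -1.68 (95% interval -4.09 to 0.09). Of the higher genes Etv1 alone remained. Cacna2d3 then had log2 ratios of 0.98 and 1.63, Tanc2 1.22 and 0.98, and Thsd7a 1.89 and 0.89. In all other nuclei the same ratios were near 0 for the 4 higher genes (medians of -0.00374 and -0.06) and the 4 lower ones (-0.06 and -0.17), and all 4 lower genes had the same direction there both times. Over all 321 nuclei the genes past 2-fold both times were Etv1, Cntnap2, Slc4a10 and Aff3 higher (4 of 1713, 0.234%) and Pgbd5 lower (1, 0.0584%), so that Etv1 alone was in both sets of nuclei. With genes of at least 50 UMIs over both libraries, 0 genes were past 2-fold both times in either direction. The 8 core genes past 2-fold both times each held fewer than 50 UMIs over the 2 libraries labelled cortex. The filter thus left them out and cannot decide about them. With each core nucleus given the same weight, 2 genes were lower both times. Called doublets made up 0, 0, 10 and 1 of the core nuclei, and without them 1 gene of the core was lower both times.

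**Figure D4:**
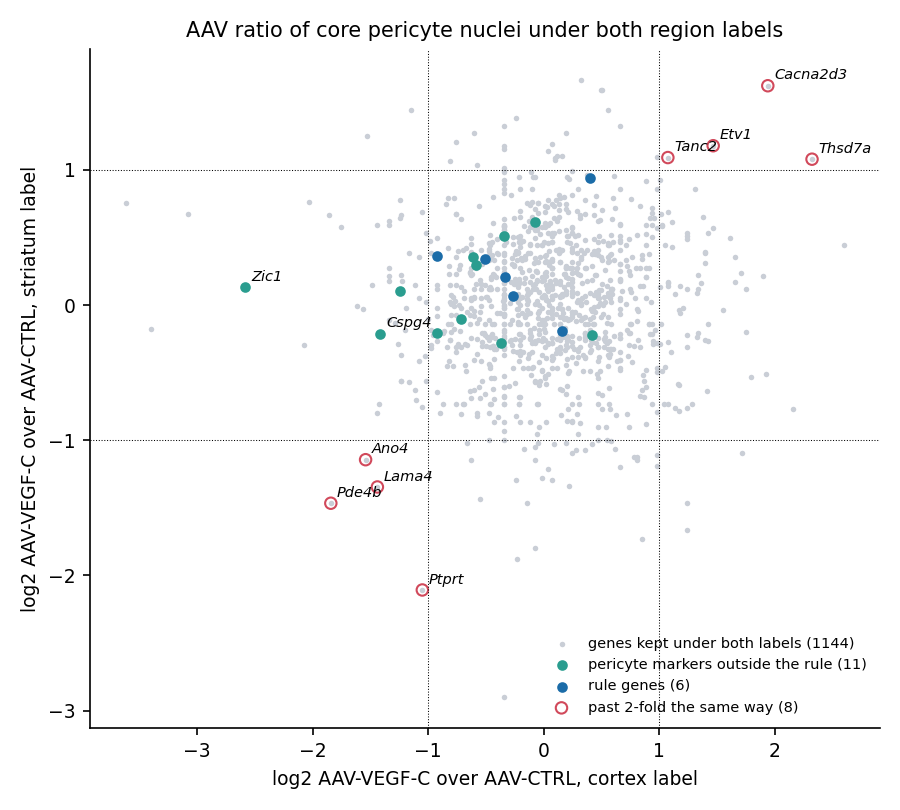
Each point is 1 gene in the core, with the log2 ratio of AAV-VEGF-C over AAV-CTRL under the cortex label on the horizontal axis and under the striatum label on the vertical axis, for 1144 genes kept under both; colours mark the 6 rule genes and the pericyte markers outside the rule, and rings mark the 8 genes past 2-fold in the same direction. Of the 11 pericyte markers, 10 lie to the left of 0 for the cortex label, and they lie around 0 for the striatum label.

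With all 321 nuclei taken, 99 of 1734 genes (5.71%) were past 2-fold higher and 89 (5.13%) lower under the cortex label, and 200 of 5620 (3.56%) higher and 261 (4.64%) lower under the striatum label. None of the 6 rule genes was past 2-fold under either label. Of the pericyte markers outside the rule, 0 of 12 were higher and 2 lower under the cortex label (median -0.48), and 0 of 17 higher and 0 lower under the striatum label (median 0.04). Fibroblast markers, with 9 and 6 nuclei of the fibroblast-marker set behind them under the cortex label, were past 2-fold lower in 4 of 5 there (median -1.32).

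Between region labels, as striatum over cortex, most pericyte genes of the core lay within 2-fold, and the genes past 2-fold both times included neuronal genes. With AAV-CTRL 238 of 2225 genes (10.7%) were past 2-fold higher and 134 (6.02%) lower, and with AAV-VEGF-C 113 of 1524 (7.41%) higher and 132 (8.66%) lower. None of the 6 rule genes was past 2-fold either time. Of the pericyte markers outside the rule, 0 of 13 were higher and 1 lower with AAV-CTRL (Cd248, the endosialin gene, 13 against 10 UMIs, a log2 ratio of -1.03), and 3 of 12 were higher and 0 lower with AAV-VEGF-C. Among them were Cspg4 (1.01) and Zic1 (2.31), and all 3 rest on the same cortex AAV-VEGF-C library as the lower ratios given above. Of the oligodendrocyte and precursor list, 6 of 9 were higher and 1 lower with AAV-CTRL and 2 of 4 higher with AAV-VEGF-C.

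In the core, 14 of 1409 genes (0.994%) were past 2-fold higher under the striatum label with both AAVs and 30 (2.13%) lower. Nrgn, which encodes the neuronal protein neurogranin, had 83, 130, 21 and 11 UMIs and log2 ratios of -3.39 and -3.78. Ntng1, an axon guidance protein of thalamic neurons, had 2, 3, 48 and 27 UMIs. All 14 higher genes and 29 of the 30 lower genes had the same direction in all other nuclei both times, where their median log2 ratios were 0.76 and 0.81 for the higher and -1.27 and -1.35 for the lower genes. In the other nuclei Nrgn had log2 ratios of -3.03 and -3.51. Differences between pericytes of the regions and RNA from surrounding cells cannot be told apart for these genes.

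**Figure D5:**
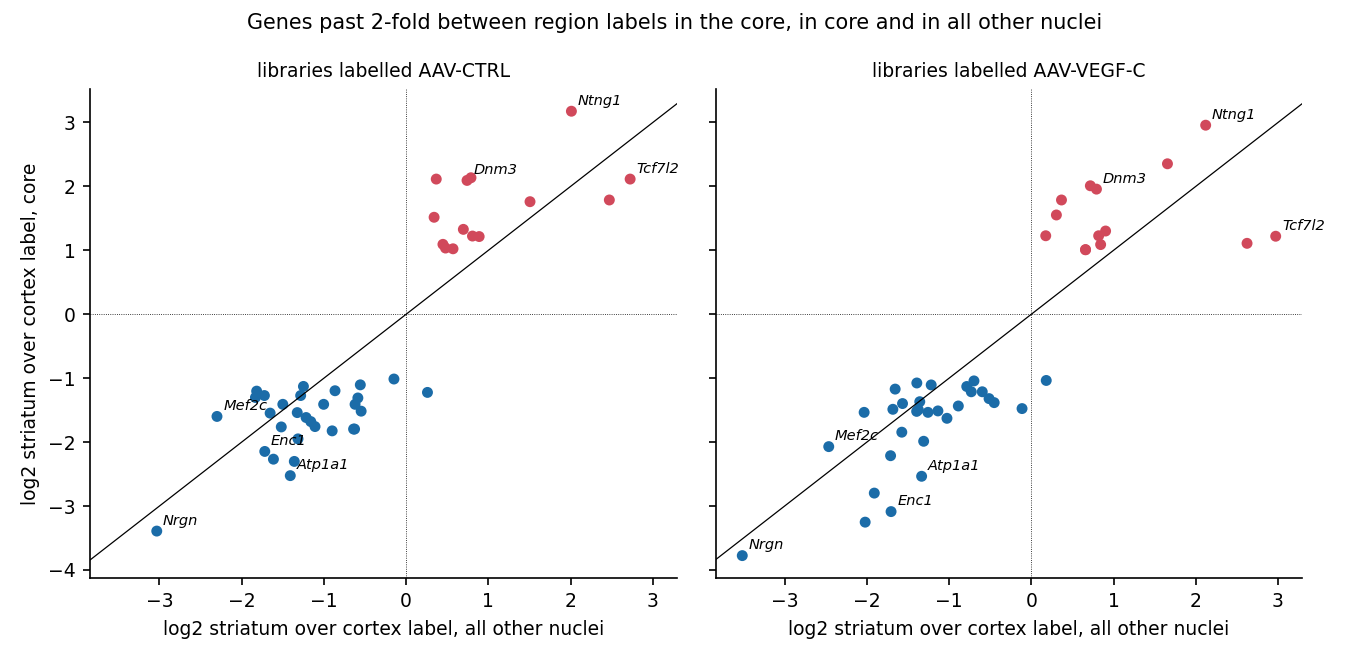
Each point is 1 of the 14 higher (red) and 30 lower (blue) genes past 2-fold both times between region labels in the core, with its log2 ratio of striatum over cortex in all other nuclei on the horizontal axis and in the core on the vertical axis, 1 panel per AAV label and a line at equal ratios. Of these genes, 14 and 29 had the same direction in all other nuclei both times.

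Over all 321 nuclei the region counts were 567 of 4598 genes (12.3%) higher and 294 (6.39%) lower with AAV-CTRL, and 371 of 3169 (11.7%) higher and 225 (7.1%) lower with AAV-VEGF-C. Past 2-fold both times were 75 of 3055 genes (2.45%) higher and 76 (2.49%) lower, and the higher ones included Itgbl1, Smoc1, Gsn and Igfbp2. Igfbp2, an insulin-like growth factor binding protein, had 14, 10, 244 and 85 UMIs in the fibroblast-marker set and 2, 0, 5 and 1 UMIs in the core. The larger number of nuclei of the fibroblast-marker set under the striatum label stands beside these counts, and its part in them was not tested. Outside the rule, Pdgfrb had log2 ratios of 0.05 (95% interval -0.42 to 0.54) and 0.14 (95% interval -0.41 to 0.70) between region labels in the core.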

How the data were processed

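Nuclei from cortex and striatum of 5 pooled mice per AAV group were profiled in 4 droplet libraries of 3' chemistry (10x Genomics). The deposited values were UMI counts per gene (31053) and nucleus, whole numbers with no normalization, which the authors made with Cell Ranger, version 5.0.1 per the file headers and 5.1.1 in the submitters' processing notes, against mm10. The gene annotation and the counting of intronic reads are not given in the sources used here. For their own analysis the authors filtered, normalized, integrated and clustered the nuclei in Seurat. No cluster labels of theirs were used here.

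Members were taken by the summed UMIs of marker genes, in python 3.11.15 with scipy 1.17.1. The members and the 28 gene lists were chosen with earlier results of these data known, and the core and fibroblast-marker sets after their values were seen. Doublets were called per library with Scrublet (scanpy 1.11.5, expected rate 8%), at 4.49%, 5.95%, 7.95% and 4.31% of nuclei, and were kept, with their removal as an alternative. UMIs were summed per library and set and scaled to 1000000 of their sum (CPM). Levels carry exact Poisson, shares Clopper-Pearson and ratios exact conditional binomial 95% intervals, which cover counting error only and treat UMIs as independent. A count of 0 was given a floor of 3 counts. Where 0 UMIs are said to allow up to 3, the value is this floor and not the upper end of the exact Poisson interval. Genes with at least 20 UMIs over the compared libraries were kept. The ratio script was tested on simulated data.

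The total was 63165470, 78332657, 77253372 and 67773329 UMIs per library, and the core held 50384, 63795, 133792 and 73921 UMIs, so that a gene at 100 CPM rested on about 5 to 13 UMIs. Named genes were those of the rule, up to 6 per list with the most UMIs and any list member past 2-fold both times, up to 20 leading genes outside the rule, up to 6 per contrast and direction by the interval bound nearest 0, up to 10 past 2-fold both times, and Vegfc, Flt4, Kdr, Nrp1, Nrp2 and Pdgfrb. Other list members, Tcf7l2, Ptgds, Trpm3 and the genes set against other cell types were named after their values were seen. Coordinates are those of the GENCODE annotation of the same assembly, matched by gene ID. Some genes are counted in lists but are not reported here by name.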

Additional observations from a re-analysis of the deposited data

Results flagged for a closer look

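Some genes were past 2-fold in opposite directions under the region labels, as AAV-VEGF-C over AAV-CTRL, which drew attention to them. The difference between the labels was not tested for any of them, since each label has 1 library per AAV group. In the core, Epb41l2, a membrane skeleton protein, had log2 ratios of -1.53 under the cortex label (7 against 16 UMIs) and 1.25 under the striatum label (21 against 16 UMIs). Pld1, phospholipase D1, had 1.24 under the cortex label (15 against 5 UMIs) and -1.47 under the striatum label (8 against 40 UMIs). Hs6st3, a heparan sulfate sulfotransferase, had 1.24 under the cortex label (18 against 6 UMIs) and -1.67 under the striatum label (4 against 23 UMIs), and the unnamed gene Gm47283 had 1.72 under the cortex label (25 against 6 UMIs) and -1.09 under the striatum label (7 against 27 UMIs). Over all 321 nuclei, Eng, the TGF-beta co-receptor endoglin, had 1.42 under the cortex label (15 against 5 UMIs) and -1.37 under the striatum label (8 against 36 UMIs). Camkk2, a calcium-dependent kinase, had 1.20 under the cortex label (18 against 7 UMIs) and -1.46 under the striatum label (5 against 24 UMIs), and Nol4 had -1.07 under the cortex label (8 against 15 UMIs) and 1.24 under the striatum label (19 against 14 UMIs).

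Genes of nasal epithelium and its glands appeared in nuclei chosen as pericyte nuclei, which is a signal outside the comparisons. In the library labelled striatum AAV-CTRL, 5 of the 154 nuclei that met the rule held at least 20 UMIs of 8 such genes, and 1 of them was in the core. Over whole libraries 0, 0, 83 and 1 nuclei did so, with 79, 134, 14460 and 273 UMIs of these genes. The ratios of Bpifb6, Gpx6, Bpifb4 and 5430419D17Rik under the striatum label rest on that core nucleus, as do 39 of the 49 core UMIs of Scgb1c1.

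The 822 nuclei that had at least 4 UMIs of the pericyte genes and exceeded the endothelial limit alone (144, 147, 311 and 220 per library) were set aside by the rule. Their levels of the rule genes follow from that minimum. Rgs5 stood at 2097 CPM in these nuclei against 1199 CPM in the core, Vtn at 1409 CPM against 2507 CPM and Atp13a5 at 573 CPM against 1793 CPM. Pdgfrb, which took no part in the selection, stood at 432 CPM in these nuclei against 966 CPM in the core. The median of the 822 nuclei was 2682, 2645, 2582 and 2886 UMIs per nucleus in the 4 libraries, and 6, 8, 15 and 3 were called doublets.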

How the results depend on the processing

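No ratio of shares between AAV labels moved outside its counting interval under any alternative, for all 321 nuclei or the core. The values below are shares and counts, which change with the number of nuclei or genes taken. The number of genes kept differs between alternatives and is not given beside most counts. A larger or smaller count is therefore not a larger or smaller share of genes. List medians moved in 7 of 151 alternatives over all nuclei and in 5 of 166 in the core. No paired analysis was possible because each group has 1 library, so that leaving out a replicate was not run. The cause of each shift below was not tested.

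With no endothelial UMI allowed, shares were 0.181%, 0.157%, 0.464% and 0.303%, and 0.118%, 0.236% and 0.160% in the core of the last 3 libraries. Genes higher both times with AAV-VEGF-C were then 1 and, in the core, 1. Lower both times between region labels were 49 and 13, higher in the core 9, and at least 4-fold over other nuclei 18 and 11. With no endothelial limit, shares were 1.10%, 0.957%, 1.96% and 1.69%, and 0.845%, 0.810%, 1.28% and 1.17% in the core. Over all nuclei, genes past 2-fold were then 285 higher and 156 lower between AAV labels for cortex, 128 higher for striatum, 894 higher between region labels with AAV-CTRL and 393 lower with AAV-VEGF-C. Both times lower with AAV-VEGF-C were 4, both times higher under the striatum label 186 and, in the core, 81 with 92 lower. At least 4-fold over other nuclei were 525 and 501.

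With a minimum of 3 UMIs the striatum shares were 0.830% and 0.567%, 149 genes were higher between AAV labels for cortex and 0 lower both times. In the core 8 were then lower both times, and 29 higher both times between region labels. With a minimum of 6 UMIs the striatum shares were 0.405% and 0.286% and, in the core with AAV-CTRL, 0.266%. Genes higher were then 61 for cortex AAV labels, and 364 and 173 between region labels. Both times 3 were lower with AAV-VEGF-C, 42 higher and 49 lower between region labels, and in the core 0 were higher with AAV-VEGF-C. After thinning to 1000 UMIs the cortex shares were 0.363% and 0.366% and the core shares 0.333%, 0.336%, 0.487% and 0.376%, with 642, 709, 1537 and 425 shallower nuclei left out.

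Taking the core in place of all nuclei gave striatum shares of 0.354% and 0.258%, 58 genes lower for cortex AAV labels, and 100 higher and 173 lower for striatum. Between region labels it gave 238 and 134 with AAV-CTRL, 113 and 132 with AAV-VEGF-C, 4 lower both times with AAV-VEGF-C, and 14 and 30 both times between region labels. With genes of at least 50 UMIs the counts over all nuclei, higher and lower, were 9 and 6 for cortex AAV labels, 18 and 34 for striatum, 121 and 57 between region labels with AAV-CTRL and 52 and 47 with AAV-VEGF-C. Both times they were 0 and 0 between AAV labels and 12 and 19 between region labels, and in the core 0, 0, 2 and 9.

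With each nucleus given the same weight, 2 genes were higher and 2 lower both times with AAV-VEGF-C, and 2 lower in the core. At least 4-fold over other nuclei were 66 of 1306 genes (5.05%) with at least 10 UMIs and, in the core, 59 of 796 (7.41%). At least 2-fold, with at least 20 UMIs, were 58 of 428 (13.6%) and, in the core, 48 of 242 (19.8%). All alternatives on the core, and the core itself, were chosen after seeing the data. A core without any fibroblast-marker UMI had striatum shares of 0.261% and 0.183%, 1 gene higher both times with AAV-VEGF-C, 18 lower both times between region labels and 14 at least 4-fold over other nuclei. A core with 3 or more of the 6 genes had 2 higher both times, and without called doublets 1 gene was lower both times. Without each gene's highest nucleus in every library, 2 genes of the core were higher and 7 lower both times with AAV-VEGF-C, of which 1 and 3 were among those reported, and 28 were higher both times between region labels. Depth limits these counts, since the core of the cortex libraries held 33 and 40 nuclei.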
